A study of Mus musculus with 12 samples.

Results

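AGO2-bound RNA was mapped over 8 genes of the muscle membrane linkage: dystrophin (Dmd), its homologue utrophin (Utrn), dystroglycan (Dag1), the sarcoglycans Sgca, Sgcb and Sgcd, alpha-dystrobrevin (Dtna) and laminin alpha 2 (Lama2). Every peak that overlapped one of these genes on its own strand by at least 1 nt was taken, with no threshold, and exonic and intronic peaks were kept apart. This gave 5593 of the 713343 peaks listed in 4 libraries of mouse tibialis anterior muscle. Of these, 493 came from wild-type (WT) set 1, 1011 from mir-486 KO set 1, 2053 from WT set 2 and 2036 from mir-486 KO set 2. Each set held 1 total immunoprecipitated library and 1 size-matched input per genotype, and the assay was chimeric eCLIP, in which AGO2 is cross-linked to RNA and precipitated.

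The mice were 6-month-old males. The mir-486 KO carried a CRISPR deletion of the mir-486 hairpin. By the labels the WT mice were C57BL/6 and the KO mice FVB N/J, while the methods describe mice backcrossed to C57BL/6J, so genotype and named strain cannot be told apart here. The methods count 3 muscles per genotype, run in duplicate, and do not tie muscles to library sets, so the sets may share muscles or pool them. A spread over the sets may therefore be technical. An exact permutation of 2 against 2 libraries cannot give a two-sided p under 0.333, so genotypes were compared by values and direction in each set, with no test.

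Dystrophin is the long rod that ties the actin of the muscle fibre to a membrane complex of dystroglycan and sarcoglycans, and dystroglycan binds laminin outside the cell. Utrophin fills a similar place at the neuromuscular junction and in immature fibres. Loss of dystrophin causes Duchenne muscular dystrophy, and loss of laminin alpha 2, of a sarcoglycan or of dystroglycan sugars causes other dystrophies. AGO2 carries microRNAs, which pair with a target mostly through their seed, the bases 2 to 8 counted from the 5′ end.

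The sequences behind the main results are given first. The mature microRNA below is shown because its seed, in capitals, matched most of the enriched Dmd sites. It is the RefSeq sequence on GRCm38.p6, and miR-1a-3p, a muscle microRNA with the same seed, was not found among the entries read.
miR-206-3p: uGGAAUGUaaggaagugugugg

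The next sequences are 7 examples, over Dmd, Utrn, Dag1 and Sgcd, of intronic sites in places enriched over input in at least 1 library, each on the strand of its gene, with the 7-nt complement of that seed in capitals.
Dmd intron 1, chrX:83048632-83048698 (+): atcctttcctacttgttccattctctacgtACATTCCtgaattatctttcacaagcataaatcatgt
Dmd intron 2, chrX:83181598-83181664 (+): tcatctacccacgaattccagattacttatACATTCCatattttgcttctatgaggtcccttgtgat
Dmd intron 6, chrX:83425642-83425708 (+): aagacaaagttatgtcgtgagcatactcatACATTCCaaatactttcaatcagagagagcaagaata
Dmd intron 55, chrX:84702814-84702880 (+): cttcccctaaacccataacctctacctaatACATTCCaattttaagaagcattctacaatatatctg
Utrn intron 51, chr10:12600891-12600957 (-): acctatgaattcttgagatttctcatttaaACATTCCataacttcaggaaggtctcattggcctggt
Dag1 intron 2, chr9:108228382-108228448 (-): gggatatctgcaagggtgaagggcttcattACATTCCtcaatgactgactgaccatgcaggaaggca
Sgcd intron 3, chr11:47190323-47190389 (-): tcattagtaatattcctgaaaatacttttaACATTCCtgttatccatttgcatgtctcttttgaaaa

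A Utrn intron 2 site without any of the words searched is shown because it was the only place of the 8 genes that was enriched in all 4 libraries. The place itself is in capitals.
Utrn intron 2, chr10:12850227-12850283 (-): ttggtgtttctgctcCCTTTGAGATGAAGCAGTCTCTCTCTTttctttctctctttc

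Matches in 3′ UTRs are shown for the 6 places listed in all 4 libraries that held a word, with the word of the named microRNA in capitals. A miR-26a-5p word that overlaps the second Sgcb match is not shown apart.
Dmd 3′ UTR, let-7a-5p, chrX:85204311-85204339 (+): tcatgctatttCTACCTCactttggtttt
Utrn 3′ UTR, let-7a-5p, chr10:12382608-12382636 (-): tgatcacctttCTACCTCagaaccacctt
Utrn 3′ UTR, miR-206-3p, chr10:12383774-12383802 (-): tttacattattACATTCCttctgctgttc
Dag1 3′ UTR, miR-29a-3p, chr9:108206523-108206551 (-): tgccagggcccTGGTGCTgggttcgctct
Dag1 3′ UTR, miR-30a-5p, chr9:108206737-108206765 (-): atttaatctgcTGTTTACctaaacttgta
Sgcb 3′ UTR, miR-30a-5p, chr5:73632760-73632788 (-): ttgatgacctcTGTTTACaataaagctct
Sgcb 3′ UTR, miR-30a-5p, chr5:73634926-73634954 (-): ctgtcatggtaTGTTTACttgaaataatg

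The tissue and genotype labels were checked once. All 8 muscle fibre markers had peaks in every library, 1069 to 2219 in all. The 2 satellite cell markers had 0 to 7 peaks in a library and the 3 leukocyte markers 0 to 15. The 4 fibro-adipogenic and fibroblast markers had 98 to 275 and the 3 endothelial markers 26 to 139. The 3 Schwann cell markers had 7 to 19 and the 2 heart muscle markers 4 to 16. The libraries thus held RNA of other cell types beside muscle fibres. The Mir486 locus had 2 listed peaks in WT set 1, 4 in WT set 2 and 0 in both KO libraries. The fold and the p-value of a peak together fix the whole reads behind it, and on that basis the immunoprecipitated libraries held about 3015000 (WT set 1), 3366000 (KO set 1), 9339000 (WT set 2) and 10108000 (KO set 2) usable reads.

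Peaks of these genes were mostly intronic. In set 1, 67.5% of the listed peaks lay in introns in WT and 84.2% in mir-486 KO, and in set 2 the shares were 81.1% and 80.8%. The WT mean was 74.3% ± 9.55 (SD, n = 2) and the mir-486 KO mean 82.5% ± 2.35 (SD, n = 2), beside means of 31.6% and 41.3% for the peaks of all genes. The means of the genotypes differed by less than the spread between the WT sets. By set, KO stood well above WT in set 1 and was close to WT in set 2. Coding sequence held 21.2% ± 7.35 (SD, n = 2) of the peaks in WT and 13.8% ± 3.63 (SD, n = 2) in mir-486 KO, and 3′ UTRs 2.45% ± 1.12 (SD, n = 2) and 2.12% ± 0.916 (SD, n = 2).

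Dmd, which spans 2257 kb, supplied most of this. It had 233 intronic peaks in WT set 1, 604 in KO set 1, 1024 in WT set 2 and 944 in KO set 2. The set 1 libraries thus differed strongly and the set 2 libraries little. Per 100 kb of intron, Dmd had 10.4, 27.0, 45.8 and 42.3 peaks in that order, Utrn 4.25, 9.15, 31.3 and 30.2, and Lama2 6.42, 9.79, 26.6 and 26.8. Sgcd, the delta subunit, had 1.84, 9.59, 20.4 and 25.4. The higher count of KO set 1 than WT set 1 was thus shared by the introns of these 4 genes, and over all genes the intronic share was 21.4% in WT set 1 and 39.5% in KO set 1. The part of library make-up in this set 1 difference was not tested.

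The short genes looked different. Sgca had 11, 12, 15 and 18 exonic peaks across WT set 1, KO set 1, WT set 2 and KO set 2, and 0, 1, 3 and 3 intronic ones. Sgcb, the beta subunit, had 9, 10, 12 and 13 exonic peaks and at most 1 intronic peak. Dag1 was divided, with 13, 13, 17 and 20 exonic against 8, 13, 19 and 23 intronic peaks.

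**Figure D1:**
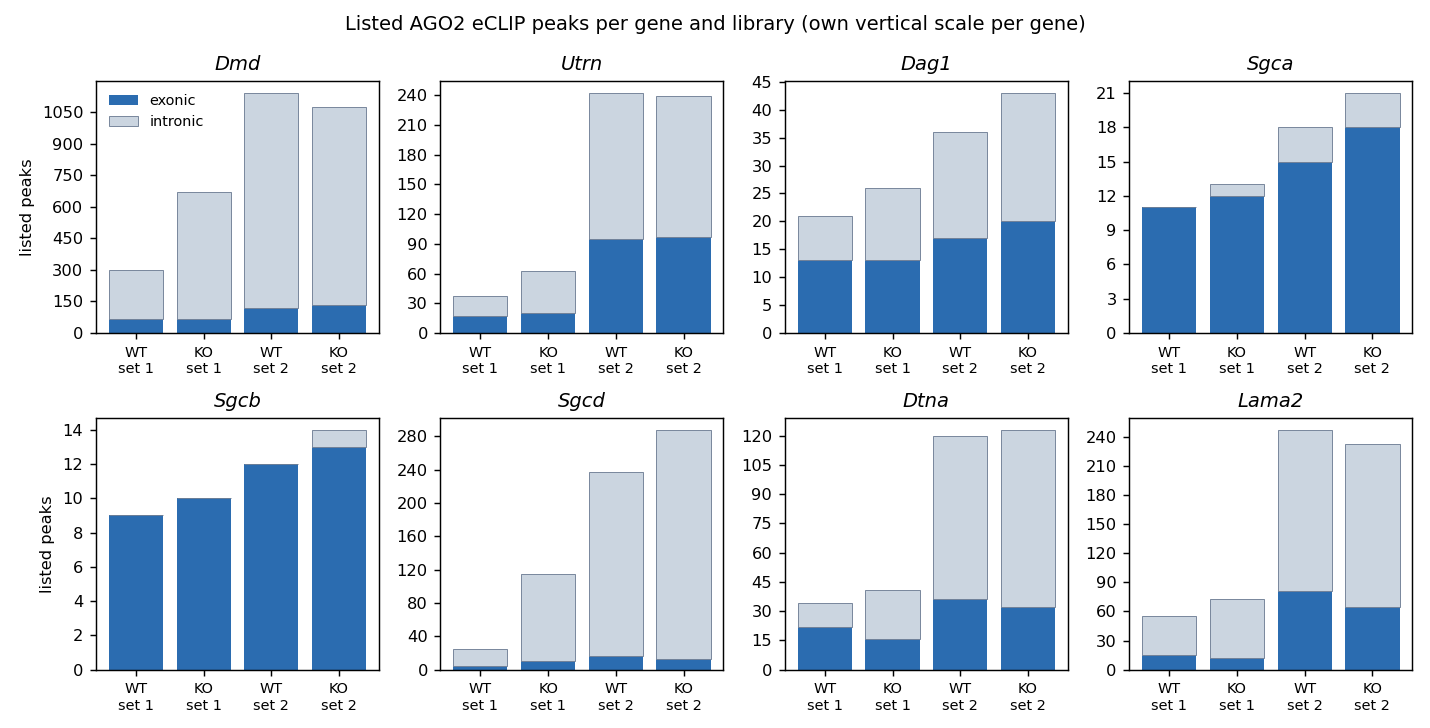
Number of listed peaks (vertical axis, own scale per gene, from 0) in each of the 4 libraries (horizontal axis) for the 8 genes, with exonic peaks in blue and intronic peaks in grey. Intronic peaks made up most of Dmd, Utrn, Sgcd, Dtna and Lama2 in the set 2 libraries and few of Sgca and Sgcb, and Dmd ranged from 301 to 1141 peaks.

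Within Dmd the intronic peaks crowded towards the 5′ end. The first 451 kb, 1 of 5 equal parts of the gene, held 47.6% of them in WT set 1, 49.0% in KO set 1, 38.2% in WT set 2 and 39.8% in KO set 2. Introns 1, 2 and 44 of the transcript with the longest coding sequence held the most in every library, with 46 to 60 peaks each in WT set 1 and 187 to 204 each in WT set 2. In Lama2 the same part held 50.6% to 63.9% of the intronic peaks of a library. In Sgcd that part, of 219 kb, held 0 to 2 peaks. It lies before exon 1 of the transcript with the longest coding sequence, where a place lay 610 kb from the annotated start. Of the last 2 parts of Sgcd, the one nearer the start held 56 against 32 peaks in KO set 1. In set 2 it was 123 against 75 in WT and 164 against 85 in KO, while WT set 1 had 3 against 16.

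Most of these intronic peaks were thin. Among peaks whose reads could be settled, the median intronic peak held 4 immunoprecipitated reads in both set 1 libraries, 7 in WT set 2 and 6 in KO set 2. Exonic medians were 8, 6, 17 and 16 reads in the order WT set 1, KO set 1, WT set 2 and KO set 2. Peaks of exactly 3 reads, the smallest seen, were 34.0% and 38.6% of the intronic peaks in WT and KO set 1 and 12.6% and 13.4% in set 2. A peak with 1 or 0 input reads needed 18 reads in WT set 1, 19 in KO set 1, 12 in WT set 2 and 14 in KO set 2 to reach a log2 of 3 over input, so thin peaks could not pass.

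A peak is called enriched here where its log2 over input and its −log10 p were both at least 3. Of the member peaks, 8 of 493 were enriched in WT set 1 (1.62%), beside 3.57% of all listed peaks. In KO set 1 it was 7 of 1011 (0.692%), beside 0.848%. In WT set 2 it was 20 of 2053 (0.974%), beside 1.42%, and in KO set 2 13 of 2036 (0.639%), beside 1.23%. The members were thus below the level of all peaks in each library, and exons and introns parted. Exonic peaks were enriched in 2 of 160 cases in WT set 1, 0 of 160 in KO set 1, 0 of 389 in WT set 2 and 1 of 390 in KO set 2, against 4.16%, 1.04%, 1.78% and 1.67% of the exonic peaks of all genes. The counts of 0 allow shares of up to 1.88% and 0.771%. Intronic member peaks were enriched in 1.80%, 0.823%, 1.20% and 0.729%, beside 1.38%, 0.551%, 0.905% and 0.630% for introns of all genes. The intronic member intervals, such as 0.828 to 3.87 in WT set 1, held the level of all genes in every library. In WT set 1, 3 of the 6 enriched intronic peaks were adjoining pieces of the same Utrn place.

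Joined by overlap across libraries, the enriched intronic peaks formed 25 places, of which 14 lay in Dmd, 4 in Dtna, 3 in Utrn, 3 in Sgcd and 1 in Dag1. Sgca, Sgcb and Lama2 had none. A place was enriched in 1 library in 16 cases and in 2 or more in 9, and 16 of the 25 were listed in all 4 libraries. Values given for a place are those of the peak with the highest log2 in each library, and these peaks share bases in every place described unless stated.

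The strongest Dmd place lay in intron 2, from 83181422 to 83181997 on the X chromosome. Its leading peak held 214 immunoprecipitated against 6 input reads in WT set 1, 86 against 4 in KO set 1, 380 against 19 in WT set 2 and 303 against 25 in KO set 2. On the log2 scale over input these were 4.03, 3.23, 3.80 and 2.84, so all but KO set 2 passed the threshold. Compared directly, the WT peak had 214 WT reads against 78 KO reads in set 1 and 380 against 292 in set 2, a WT over KO log2 of 1.62 and 0.50. The KO peaks gave KO over WT values of −1.50 and −0.59. WT was thus above mir-486 KO in both sets and at the peaks of either library, without reaching 3 in any list.

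Other Dmd places varied more between libraries. The intron 6 place had 16 reads against 1 input read in WT set 1, 23 against 2 in KO set 1, 43 against 3 in WT set 2 and 68 against 1 in KO set 2, which gave log2 values of 2.87, 2.32, 3.32 and 5.33. It was highest in KO set 2, and an input count of 1 stands for 1 or 0 reads. The intron 1 place near 100 kb from the gene start had log2 values of 3.52, 3.55, 2.78 and 3.47 and passed both thresholds in the 2 KO libraries only, while WT set 1 had a −log10 p of 2.96. There the genotypes overlapped. In all, 10 of the 14 Dmd places lay in introns 1 and 2, and 8 of the 14 were enriched only in set 2, the deeper set.

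**Figure D2:**
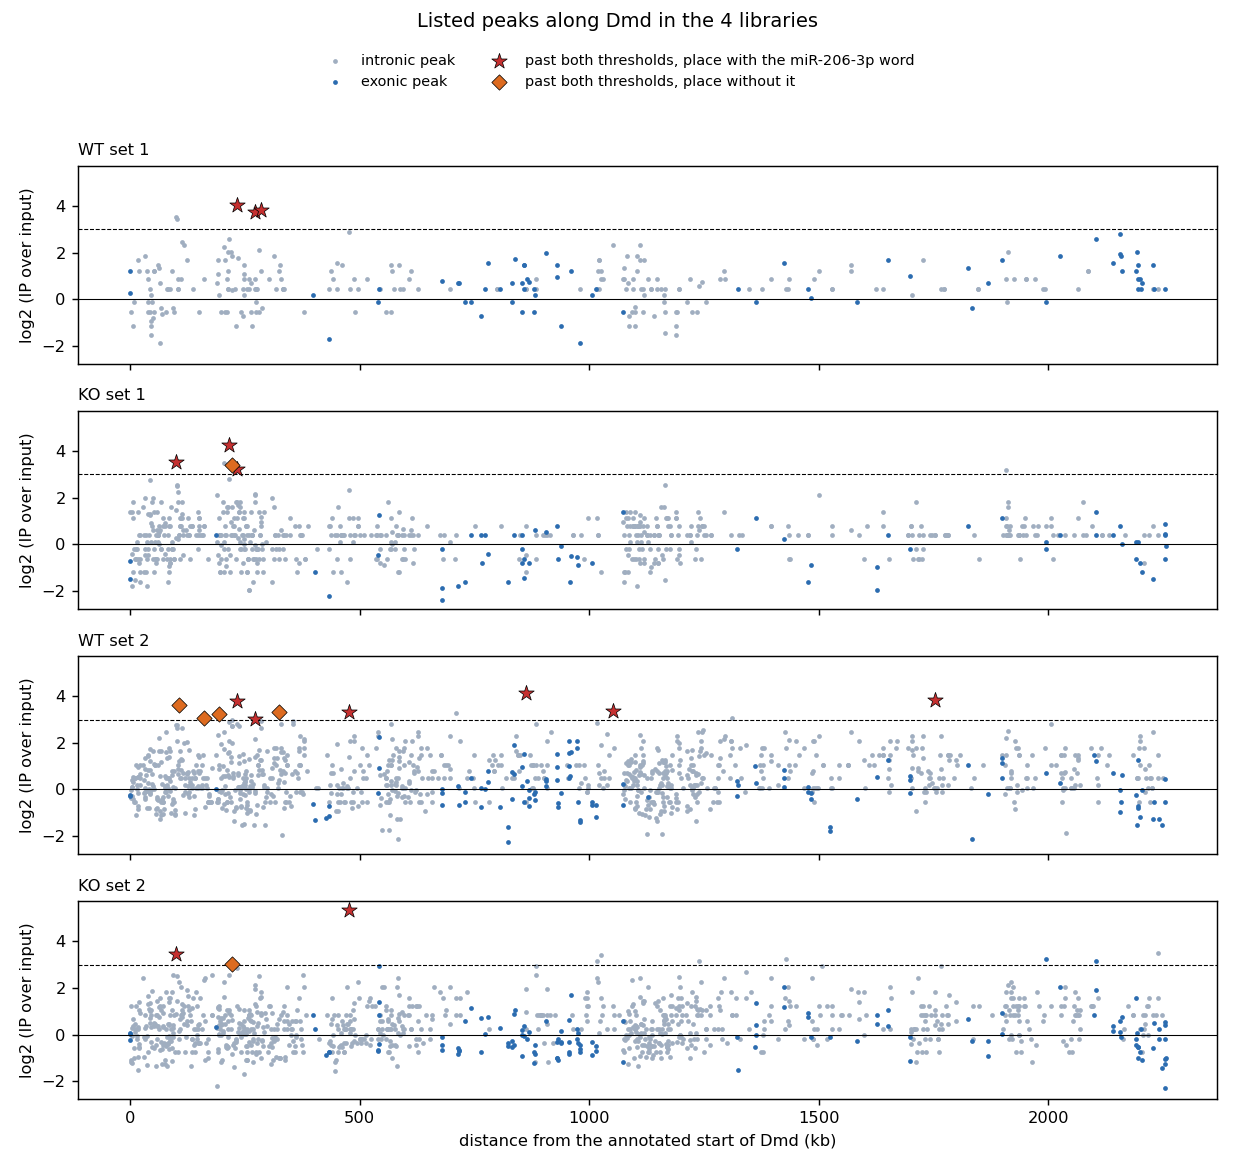
Each point is a listed Dmd peak in 1 library, by its distance from the annotated gene start in kb (horizontal axis) and its log2 over input (vertical axis). Grey points are intronic and blue points exonic, the dashed line is a log2 of 3, and stars and diamonds mark peaks past both thresholds in places with and without the complement of the miR-206-3p seed. Stars number 3 in WT set 1, 3 in KO set 1, 6 in WT set 2 and 2 in KO set 2.

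Many enriched intronic sites, above all in Dmd, shared a feature that the choice of genes did not use. Of the 25 places, 14 held the word ACATTCC on the sense strand, within the place or 25 nt beside it, which is the complement of the miR-206-3p seed. In Dmd it was 9 of 14, in Sgcd 2 of 3, in Utrn 1 of 3, in Dag1 1 of 1 and in Dtna 1 of 4. No other of the 14 microRNA words searched was in more than 3 of the 25 places. The words of miR-486a-5p, the deleted microRNA, and of miR-133a-3p were not among those searched. In 1 of the Sgcd places ACATTCC lay outside the enriched peaks, in a part covered by another library. This search of introns was added after the enriched places had been seen.

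By peak, 14 of the 20 enriched intronic Dmd peaks held the word, or 70.0% (95% Wilson interval 48.1 to 85.5), with 3 of 3 in WT set 1, 3 of 4 in KO set 1, 6 of 10 in WT set 2 and 2 of 3 in KO set 2. Among the 2785 other intronic Dmd peaks the share was 6.18%. Over all 8 genes, 18 of 45 enriched intronic peaks held the word, or 40.0% (27.0 to 54.5). In Utrn it was 1 of 15, with a median length of 10 nt, so the members' share by peak came mostly from Dmd. Across all genes the share was 19.6% of 2153 enriched intronic peaks and 5.41% of the others. Peak length moved with this, since the median was 210 nt for the enriched Dmd peaks, 71 nt for the other Dmd peaks and 30 nt for enriched intronic peaks of all genes. Over peaks of 100 to 400 nt the shares were 60.0% (42.3 to 75.4) of 30 enriched member peaks and 13.2% of the other member peaks, beside 42.1% (38.8 to 45.4) and 10.2% for all genes. The intervals of the enriched peaks overlapped, and the share of all genes, 42.1%, lay just under the member interval. The members are part of all genes, and peaks of different libraries can come from the same place. An excess over all genes was not tested.

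The word sat near the middle of the peak. Over the 14 places its median distance from the midpoint of the strongest peak was 17.5 nt, with a median peak length of 243 nt. The base after the word was A in 10 of 14 places and in 8 of the 9 Dmd places. For intronic peaks of all genes that held the word, it was followed by A in 60.0% of 422 enriched peaks and 44.4% of 15004 others.

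The share with the word also rose with the −log10 p over input up to 3, and was no higher above 3. In Dmd it was 3.42% of 1522 peaks at 0, 5.94% of 1060 peaks up to 1, 22.6% of 124 up to 2, 45.0% of 40 up to 3, and 42.4% of 59 above 3. For the other 7 genes together the shares were 5.01%, 6.89%, 19.6%, 34.5% and 23.4%. All genes gave 3.07%, 6.64%, 17.5%, 23.5% and 21.8%. Median length in Dmd went from 61 nt in the lowest band to 196 nt in the highest, and peaks of different libraries at 1 place are not independent.

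**Figure D3:**
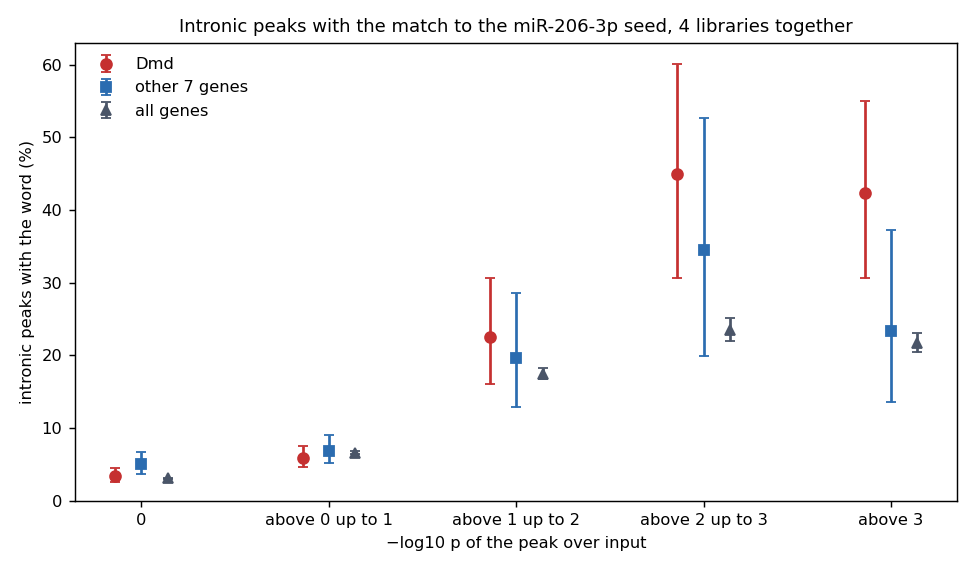
Percent of intronic peaks that hold the complement of the miR-206-3p seed (vertical axis) by the −log10 p of the peak over input (horizontal axis), over the 4 libraries, for Dmd, the other 7 genes and all genes, with 95% Wilson intervals. Dmd went from 3.42% in the lowest band to 42.4% in the highest, beside 3.07% and 21.8% for all genes. The band above 2 up to 3 had the highest share, at 45.0% for Dmd and 23.5% for all genes.

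The Utrn intron 2 place was of another kind. It is 27 nt long, was listed as adjoining short peaks, and 63.0% of its bases are C or T. It held 44 reads in WT set 1, 95 in KO set 1, 75 in WT set 2 and 121 in KO set 2, each against 1 or 0 input reads, with log2 values of 4.33, 5.37, 5.70 and 6.16. All 4 libraries were far over input, and KO was above WT in both sets, with a direct KO over WT log2 of 0.92 in set 1 and 0.57 in set 2. A second Utrn place, in intron 33, was enriched in WT set 2 with a log2 of 3.80 and in KO set 2 with 4.45. It carried the miR-30a-5p word at 2 positions.

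Exonic peaks are described by the roles of the proteins. For dystrophin itself, the exonic peaks had a median log2 over input of 0.68 in WT set 1, −0.20 in KO set 1, −0.04 in WT set 2 and −0.18 in KO set 2, and none of the 68, 66, 117 and 132 was enriched. The coding place highest over input of those listed in all libraries lay in exon 63, with log2 values of 2.57, 1.38, 1.24 and 3.14 in the same order on 13, 6, 17 and 15 reads. These values overlapped between genotypes. The Dmd 3′ UTR had a place with the let-7a-5p word shown above, in exon 79, with log2 values between 0.45 and 0.52 over input in all 4 libraries. Between the immunoprecipitated libraries WT exceeded KO there in both sets. The WT peaks had 33 WT reads against 23 KO reads in set 1 and 101 against 62 in set 2. This was a WT over KO log2 of 0.68 and 0.83. Over input WT did not stand above KO in this way, with WT at 0.459 and KO at 0.451 in set 1. In set 2 WT was at 0.460 and KO at 0.518.

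Utrophin had exonic medians of 0.46, 0.70, −0.02 and −0.18 across WT set 1, KO set 1, WT set 2 and KO set 2. Its 1 enriched exonic peak lay in exon 70 of KO set 2, with 21 reads against 1 or 0 input reads and a log2 of 3.63. The overlapping Utrn peaks of KO set 1 and WT set 2 were at 0.12 and 0.37, the WT set 1 peak beside it was at −0.54 and did not overlap it, and the adjoining KO set 2 peak was at 1.56. The 3′ UTR place with the let-7a-5p word was steadier, at 2.08, 2.16, 1.80 and 2.21 over input, and its direct log2 lay between −0.05 and 0.01 in all 4 direct lists. The place with the miR-206-3p word in exon 75 had 9, 11, 89 and 57 reads and log2 values of 1.04, 2.26, 2.49 and 2.07. Over input KO was thus the higher in set 1, on 2 WT and 1 KO input reads, and WT in set 2. Compared directly, WT over KO was 0.01 in set 1 and 0.76 in set 2, and KO over WT −0.02 and −0.87. The immunoprecipitated libraries thus hardly differed there in set 1.

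Dystroglycan, the laminin receptor that dystrophin and utrophin bind, had peaks at 1 coding position of exon 3 in every library. These Dag1 peaks were at 2.35, 1.30, 1.22 and 1.02 over input on 78, 34, 87 and 103 reads. WT set 1 stood above the other libraries. An adjoining Dag1 peak in the 5′ UTR was at 2.51 in WT set 1 and at −0.15 in KO set 1. In set 2 the highest peaks of the joined place, which also covers the coding position, were at 1.22 in WT and 1.39 in KO. That KO peak had a KO over WT of 0.15, so WT did not stand above KO in set 2. In the Dag1 3′ UTR, the peaks over the miR-29a-3p word were at 2.64 in WT set 1, −0.26 in KO set 1, −0.16 in WT set 2 and −0.76 in KO set 2, so WT set 1 alone was over input.

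Among the sarcoglycans, Sgcb held the only enriched exonic place besides that of Utrn. Its 3′ UTR place from 73634782 to 73635045 on chromosome 5 had 31 reads against 1 or 0 input reads in WT set 1, 15 against 2 in KO set 1, 102 against 41 in WT set 2 and 108 against 32 in KO set 2, with log2 values of 3.83, 1.71, 0.79 and 0.99. WT set 1 was the highest, and the set 2 libraries, with most reads, were the lowest. The words of miR-30a-5p and miR-26a-5p overlap there. Sgcd had a 5′ UTR place at 3.40, 0.67, 1.74 and 1.27, of which the first missed the threshold of p on 23 reads. Sgca exonic peaks were near or under input, with medians of 0.20, −0.79, −0.58 and −0.25. Its coding place in exon 3 was at 2.20 in WT set 1 and at −0.33, −0.12 and 0.15 in KO set 1, WT set 2 and KO set 2. Dtna, which binds dystrophin inside the fibre, had medians of 0.46, 0.38, −0.20 and 0.13, and Lama2, a secreted chain, 0.46, −0.67, −0.53 and −0.59. The Lama2 coding place highest over input of those listed in all libraries lay in exon 62 at 1.46, 0.80, 0.15 and −1.18, on at most 8 reads where reads were settled.

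Recurring intronic places of the other genes were also over input. In Dtna a place in intron 2 was at 1.68, 2.89, 3.97 and 4.28 across WT set 1, KO set 1, WT set 2 and KO set 2, and passed both thresholds in the set 2 libraries. Its direct values were within 0.22 of 0 in all 4 direct lists. In Lama2 a 23-nt place in intron 1 was at 2.68, 2.71, 2.87 and 3.49, and in Sgcd a 25-nt place was at 2.20, 2.12, 3.28 and 3.14. Neither passed both thresholds in any library.

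In the direct lists, which compare the immunoprecipitated libraries of the genotypes at the peaks of one of them, few member peaks passed both thresholds. At the WT peaks of set 1 it was 1 of 493, beside 0.469% of all peaks, and at the KO peaks 2 of 1011, beside 0.179%. In set 2 it was 0 of 2053 at the WT peaks, which allows a share of up to 0.146%, beside 0.0192%, and 2 of 2036 at the KO peaks, beside 0.0144%. The Dmd peak in exon 65 from WT set 1 had 17 WT and 2 KO reads and a log2 of 3.25, and in set 2 the WT peak there was at 0.04 on 68 WT and 72 KO reads, and the shorter KO peak gave KO over WT −0.83. The Dmd peaks from KO set 1, in introns 1 and 2, had 17 and 15 KO reads against 1 or 0 WT reads and log2 values of 3.93 and 3.75. At the intron 2 position set 2 had KO over WT −0.25, and at the intron 1 position no set 2 peak was listed.

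Sgca was the gene whose direct difference recurred. The 2 passing peaks were adjoining pieces of 1 place over exon 2, from 94973399 to 94973470 on chromosome 11, which spans the end of the 5′ UTR and the start of the coding sequence. KO set 2 held 32 and 29 reads in them against 3 WT reads each, a log2 of 3.29 and 3.15. In KO set 1 the same place had 14 KO against 2 WT reads, a log2 of 2.65. Both KO libraries listed it and neither WT library did. Over their own input these KO peaks were at −0.20 in set 1 and at 0.33 and 0.64 in set 2, on 7, 15 and 11 input reads, so the KO input held reads there as well. Over the gene the sets went different ways: the 11 exonic peaks of WT set 1 all had WT over KO values above 0, with a median of 1.28, and in WT set 2 it was 4 of 15, with a median of −0.34. Named strain and genotype cannot be told apart in this difference.

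Taken over all exonic member peaks, WT over KO had a median log2 of 0.90 in set 1 and 0.04 in set 2, beside 0.74 and 0.12 for exonic peaks of all genes. At the KO peaks with the sign turned, the medians were −0.062 and 0.12, so the set 1 shift depended on whose peaks were read. Dmd, Sgca and Sgcb had WT above KO at the peaks of either library in set 1, with medians of 0.74, 1.28 and 1.20 at WT peaks and, with the sign turned, 0.48, 1.16 and 0.16 at KO peaks. In set 2 both were under 0 at the WT peaks, with Dmd at −0.02 and Sgca at −0.34, so neither kept its direction across sets at the WT peaks. Sgcb stayed above 0 in set 2, at 0.080 and 0.040, and was the only one of the 8 genes above 0 in all 4 lists. Both set 2 values were near 0. The Sgcb value at the WT peaks of set 2 was below the 0.12 of all genes. At the KO peaks of set 2 all genes had a KO over WT of 0.016. Intronic medians were above 0 in both directions: 0.51 and 0.68 at WT peaks with WT as the numerator in sets 1 and 2, and 1.43 and 0.29 at KO peaks with KO as the numerator. The intronic peaks of all genes had medians of 1.16 and 0.71 at WT peaks and 1.43 and 0.69 at KO peaks, in the same order. Each list holds peaks called in its own numerator library.

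**Figure D4:**
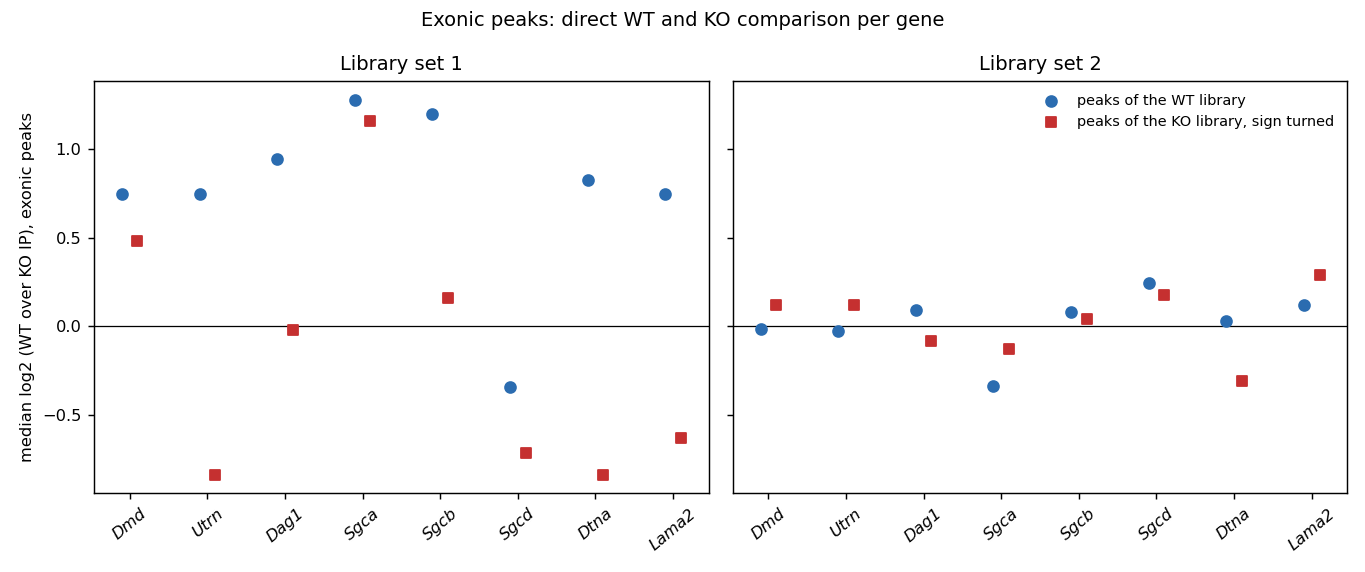
Median log2 of WT over KO immunoprecipitated reads over the exonic peaks of each gene (vertical axis), for library set 1 on the left and set 2 on the right, at the peaks of the WT library (blue circles) and at those of the KO library with the sign turned (red squares). Set 1 medians ranged from −0.84 to 1.28 and differed between the peak lists for most genes, while set 2 medians lay between −0.34 and 0.29.

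Exonic places recurred more often than intronic ones. Of 365 exonic places, 88 were listed in all 4 libraries, or 24.1% (95% Wilson interval 20.0 to 28.8), beside 17.8% for all genes. Of 3173 intronic places it was 94, or 2.96% (2.43 to 3.61), beside 1.40%. Sgca had 8 of 10 exonic places in all 4 libraries, Dmd 45 of 96, Dag1 6 of 16, Utrn 8 of 94 and Lama2 4 of 71. For Dmd introns it was 69 of 1926 places, against 3 of 267 in Utrn and 7 of 323 in Lama2.

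In 3′ UTRs the members had 51 places, 9 with at least 1 of the 14 words. Sgcb had 3 of 11, Dmd 2 of 8, Utrn 2 of 6, Dag1 1 of 5 and Dtna 1 of 17. By peak, words were in 8 of 16 peaks in WT set 1, 6 of 28 in KO set 1, 7 of 34 in WT set 2 and 6 of 30 in KO set 2, beside 28.7%, 21.8%, 27.3% and 27.4% of the 3′ UTR peaks of all genes. The 95% intervals of the members, such as 28.0 to 72.0 in WT set 1, overlapped those background levels in every library.

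The wider set of 32 genes for the complex, its laminin and integrin partners and the enzymes that glycosylate dystroglycan had 14 enriched of 597 listed peaks in WT set 1 (2.35%, beside 3.57% of all listed peaks), 3 of 879 in KO set 1 (0.341%, beside 0.848%), 10 of 1721 in WT set 2 (0.581%, beside 1.42%) and 14 of 1801 in KO set 2 (0.777%, beside 1.23%). Each share was below that of all peaks. Ank3, the membrane scaffold ankyrin-G, had 12 of these over the 4 libraries. Itgb1 (integrin beta 1) had 7 and Lamc1 (laminin gamma 1) 5. In the direct lists of set 1, 3 peaks of these genes passed both thresholds with WT higher (0.503%, beside 0.469%) and 4 with KO higher (0.455%, beside 0.179%), and set 2 had 0 in either direction, beside 0.0192% and 0.0144%.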

How the data were processed

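Chimeric AGO2 eCLIP of tibialis anterior gave 4 total immunoprecipitated libraries. The authors' methods list Clipper, cutadapt, STAR and scripts for input normalisation, with no settings, and the submitters' processing notes also name UMI-tools, FastQC and SAMtools. How duplicates were removed is not given in the sources used here. The authors deposited, for each peak, a log2 fold and the −log10 of its p-value. They deposited 4 lists over input and 4 that set WT and KO against each other. Every fold and p-value of a peak is theirs. miR-486-enriched libraries were not analysed here.

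Genes were GENCODE M21 on GRCm38, and the labels name M24. The midpoint of a peak set its region, with CDS given precedence, then UTR, then noncoding exon. Reads were inferred by finding the whole numbers that give both the fold and the p (relative tolerance 0.002), with an input of 0 written as 1. They were settled for 75.1% to 88.0% of member peaks in a library, and where both lists settled them they were equal in 97.1% to 100% of cases. On 400 simulated peaks 376 were recovered, 24 stayed unsettled and 0 were wrong. Seed words were 7 nt, searched on the sense strand in peaks extended by 25 nt. Of 19 muscle microRNAs, 14 were in the RefSeq table. Intervals are 95% Wilson and cover counting error only.

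The members and lists were chosen with earlier results of these data known. Named are all 8 genes, their places listed in most libraries with the highest mean log2, enriched places and those past both thresholds in a direct list. Alternatives were other thresholds, merged peaks, other region and overlap rules, other words and each set alone. Python 3 with numpy, scipy, pysam and matplotlib was used.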

Additional observations from a re-analysis of the deposited data

How the results depend on the processing

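Counts of peaks past thresholds moved with them. With a log2 of at least 1, enriched member peaks numbered 15 in WT set 1, 66 in WT set 2 and 39 in KO set 2. At a log2 threshold of 4 they numbered 4 in WT set 1, 4 in KO set 1, 6 in WT set 2 and 7 in KO set 2. With a −log10 p of at least 5 they were 4, 11 and 8 in WT set 1, WT set 2 and KO set 2, and with at least 2 they were 24 in KO set 2. Merging adjoining peaks left 5 in WT set 1. In the direct lists a log2 threshold of 1 gave 10 at WT peaks and 4 at KO peaks in set 1 and 6 at WT peaks in set 2. A log2 threshold of 4 gave 0 in every direct list, a −log10 p of at least 5 gave 0 in both directions of set 1 and 2 at KO peaks in set 2, and a −log10 p of at least 2 gave 5 at KO peaks in set 1 and 7 at WT peaks in set 2. The sign of the direct medians turned at the KO peaks, to −0.062 for exons in set 1 and to −1.43 and −0.29 for introns in sets 1 and 2, as each list holds peaks called in its numerator library. Counting each gene once gave 0.44 for introns in set 2. Requiring an overlap of 50% of both peaks left 8.91% of exonic and 1.19% of intronic places in all 4 libraries. A 6-nt word was in 30 of the 51 places in 3′ UTRs. Leaving out a library set gave 5 to 12 enriched intronic places with the miR-206-3p word, of 7 without set 2 and 23 without set 1, and intronic shares of 67.5% to 81.1% in WT and 80.8% to 84.2% in KO. The alternatives for the word were chosen after seeing the data. The other 47 values kept their direction and stayed within the spread or within 1.5 times the main count. Exonic direct folds restricted to places enriched in WT set 2 gave no value, as no exonic place was. No paired analysis was possible because no result comes from a test across libraries, and the direct lists already set WT against KO within each set. Depth limits the set 1 libraries most, where introns rest on about 4 reads a peak.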
